A study of Mus musculus with 2 samples.

Results

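The genes Trp63, Trp53, Cdkn1a, Mdm2, Eda2r and Gadd45a, 6 of the 32285 genes counted, were followed in nuclei of the tibialis anterior, the shin muscle that lifts the foot. They were matched by symbol, and they were chosen because their levels in these nuclei had already been seen, so the levels are a description and carry no test. The data are 2 single-nucleus RNA libraries from male mice of 16 to 20 weeks, all with chronic kidney disease, collected 5 days after surgery to ligate the femoral artery. The first is labelled AHRfl/fl and the second AHRmKO, a muscle knockout of the aryl hydrocarbon receptor gene Ahr. Kidney disease and ligation were common to both libraries, so neither is compared with a healthy or an unligated muscle. Both carry the same strain label, AHRtm3.1Bra/J, a conditional allele of Ahr, bred to Tg(ACTA1-cre/Esr1*)2Kesr/J, in which a skeletal actin promoter drives a Cre recombinase fused to an oestrogen receptor domain and active only after its ligand is given. The ligand, its timing and the number of animals in each library are not stated in the labels. With 1 library in each group, a difference between the libraries has no replicate check and genotype, animal and library preparation cannot be told apart.

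The p53 family are transcription factors that bind DNA as tetramers and switch on genes for cell cycle arrest, DNA repair and cell death. Trp53 encodes p53, the member active in most tissues under stress, and Trp63 encodes p63, best known as the factor that maintains the basal layer of the skin. Mdm2 is both a target of p53 and the ligase that marks it for degradation, Cdkn1a encodes the cyclin-dependent kinase inhibitor p21, Gadd45a encodes a stress-induced growth arrest protein that rises in denervated muscle, and Eda2r encodes a receptor of the tumour necrosis factor family for the ligand ectodysplasin A2.

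Each library gives unique molecular identifiers (UMIs), which count captured RNA molecules per gene and droplet barcode. The AHRfl/fl library held 151788328 UMIs and the AHRmKO library 113737134, with 19056 and 9015 barcodes of at least 2000 UMIs. Median depth in these barcodes was 3803.5 and 3596 UMIs, the median mitochondrial share was 0.970% and 2.66%, and 43 barcodes occurred in both libraries. A barcode was called a fibre nucleus where Ttn, Neb, Trdn and Dmd, genes of the contractile apparatus and its membrane anchor, together made up at least 1% of its UMIs. Fibre nuclei were split by Myh3, embryonic myosin, which regenerating fibres express: 1790 and 1850 barcodes had Myh3 under 0.1% of UMIs (Myh3-low) and 3354 and 1921 had at least 0.1% (Myh3-high). Other classes were called from markers and are named as "-like". Levels are counts per 1000000 UMIs of a class sum (CPM), with exact Poisson 95% intervals, and ratios have exact binomial intervals. All intervals cover counting error only and take UMIs as independent, which understates the spread between nuclei.

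The fibre gate was not clean, and this touches every level below. Among Myh3-low barcodes, 44.6% in the AHRfl/fl library and 37.1% in the AHRmKO library had fibre genes under 2% of UMIs. The marker rule for satellite cells, the stem cells of muscle, was also met by 73 and 507 of them, and Pax7, the defining gene of those cells, stood at 87.6 and 344 CPM. All 8 satellite cell markers were detected in every fibre sum, and their summed level in Myh3-low barcodes was 582 and 1127 CPM, beside 2696 and 2440 in satellite-like barcodes. The macrophage rule was also met by 335 and 237 Myh3-low barcodes. The largest imbalance was in the rule for myocytes, the fusing muscle precursors, met by 982 of 1790 and 144 of 1850, with Myog, a factor of muscle differentiation, at 148 and 45.5. The 6 myocyte markers summed to 1137 and 404 in Myh3-low nuclei and to 4384 and 498 in free RNA, and their part in the library ratios was not tested. The targeted gene was measured at 24.0 (260 UMIs) and 22.0 (178 UMIs) CPM in Myh3-low barcodes, a log2 ratio of -0.13 (interval -0.41 to 0.15), and at 34.8 and 32.1 in Myh3-high ones. Which part of Ahr these UMIs come from is not recorded, and UMIs from outside a deleted part would check nothing, so the libraries are called by their labels.

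Trp63 (ENSMUSG00000022510, GRCm38 chromosome 16, 25683763 to 25892102, plus strand) was found almost wholly in fibre nuclei. Of its UMIs in barcodes of at least 2000 UMIs, 94.8% in the AHRfl/fl library and 93.3% in the AHRmKO library lay in fibre barcodes, which made up 27.0% and 41.8% of barcodes. Its level in Myh3-low fibre nuclei was 374 CPM (interval 362 to 385; 4045 UMIs) in the AHRfl/fl library and 106 (99.1 to 113; 860 UMIs) in the AHRmKO library. In Myh3-high nuclei it was 84.9 (80.9 to 89.0) and 39.2 (35.5 to 43.2). The 4 counting intervals did not overlap: in each library the Myh3-low sum lay above the Myh3-high sum, and both sums were lower in the AHRmKO library. Outside fibres the level was 4.90 and 2.15 in macrophage-like nuclei, and 4.57 and 2.24 in satellite-like ones, beside 2.75 and 3.70 estimated for free RNA alone from barcodes of 200 to under 500 UMIs. With free RNA profiled in barcodes of at most 100 UMIs the estimate was 8.16 and 3.06, above all 4 of these levels in macrophage-like and satellite-like nuclei of the same library, so no level of Trp63 beyond free RNA is read from them. Fibroadipogenic-like nuclei had the other order, at 4.18 (2.82 to 5.97) and 10.1 (6.97 to 14.1), on 30 and 34 UMIs. Adipocyte-like barcodes, only 57 and 53 in number, stood at 40.0 (20.7 to 69.9) and 19.9 (6.46 to 46.4). The annotation lists 8 coding transcripts of Trp63 from 3 starts spread over 118153 bases. Counts per gene do not tell the forms with the full activating domain from the shorter ones.

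**Figure D1:**
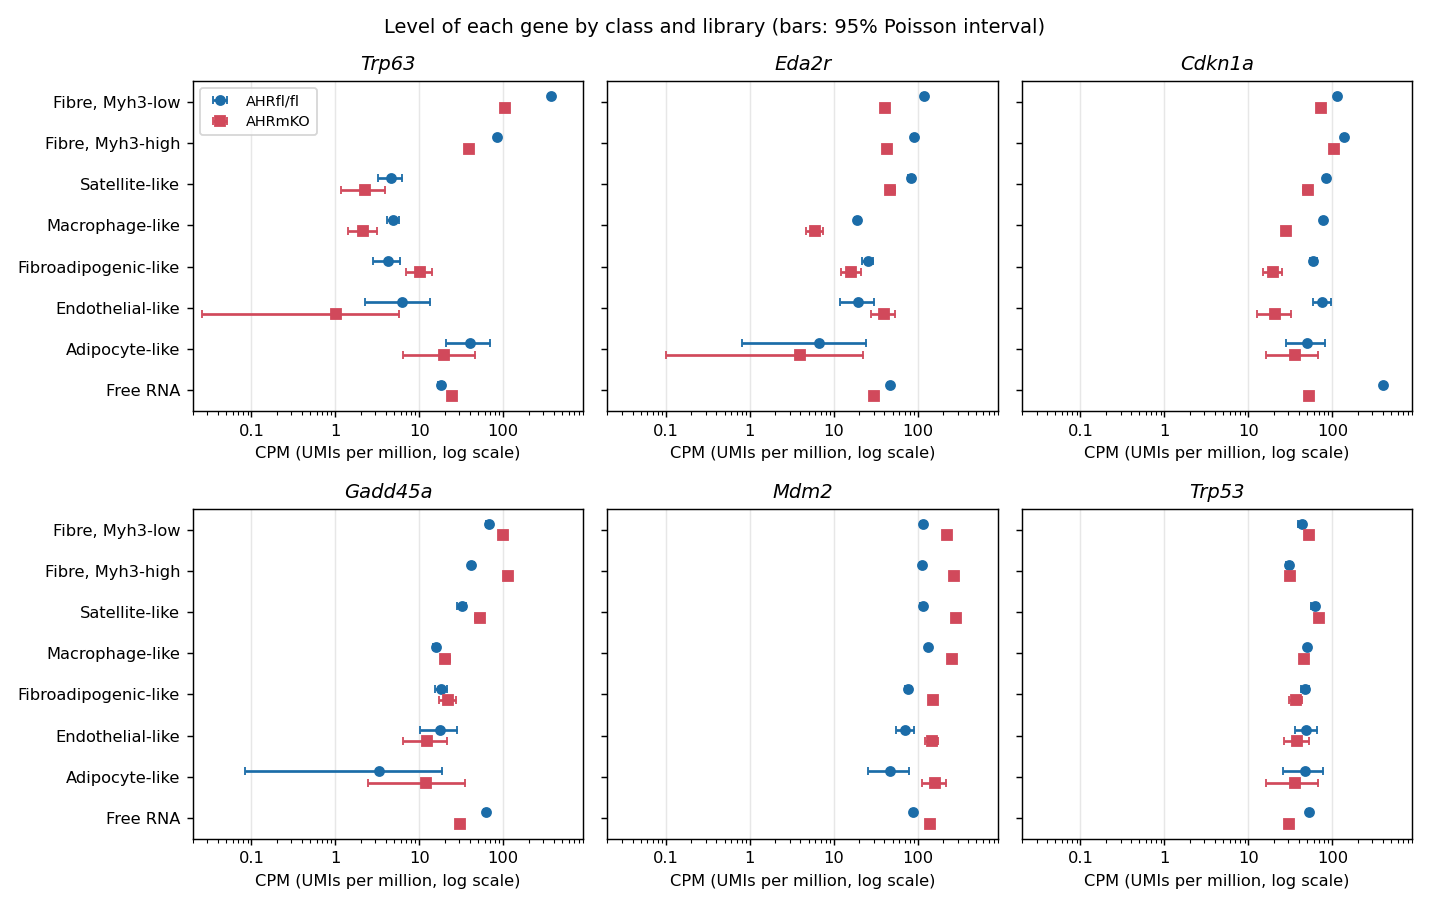
Level of each of the 6 genes in CPM (log axis) by class, with circles for the AHRfl/fl library, squares for the AHRmKO library and bars for the exact Poisson 95% interval. Trp63 stands at 374 and 106 in Myh3-low fibre nuclei and at 40.0 or below in every class outside fibres, whereas Mdm2 lies higher in the AHRmKO library in the classes drawn, which leave out myocyte-like nuclei and the smallest classes (erythroid-like barcodes stood at 152 and 35.3), and Cdkn1a reaches 407 in the free RNA of the AHRfl/fl library.

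The library difference of Trp63 was a log2 ratio of -1.81 (interval -1.92 to -1.71) in Myh3-low nuclei and -1.10 (-1.27 to -0.96) in Myh3-high nuclei. Among all 17366 genes with at least 10 UMIs in the Myh3-low sums, 19.2% were lower by at least 2-fold and 10.7% were higher by at least 2-fold. Among 18063 genes in the Myh3-high sums, the shares were 17.6% and 5.74%. Of the 6 genes, 2 (Trp63 and Eda2r) were at least 2-fold lower and none at least 2-fold higher in Myh3-low nuclei, while in Myh3-high nuclei the same 2 were lower and 2 (Mdm2 and Gadd45a) were higher. Since these ratios were known when the genes were chosen, nothing is read from the counts.

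Trp63 UMIs were unevenly spread over the Myh3-low nuclei. At least 1 UMI was seen in 607 of 1790 barcodes (33.9%, Clopper-Pearson 95% interval 31.7 to 36.2%) of the AHRfl/fl library and in 294 of 1850 (15.9%, 14.3 to 17.6%) of the other, at median depths of 5012.5 and 3447.5 UMIs. With every barcode thinned to 2000 UMIs the shares were 24.4% and 11.4%. In macrophage-like barcodes, which should lack the gene, a UMI was seen in 1.41% and 0.965% (0.739% and 0.483% thinned) at median depths of 3113.5 and 3238. At least 5 UMIs were seen in 273 and 46 barcodes, with a highest count of 72 and 48. The variance of the Trp63 count over Myh3-low barcodes was 13.3 and 8.54 times its mean. For Eda2r it was 2.68 and 1.96 times and for Trp53 1.33 and 1.24 times. Counts that clump in this way make the counting intervals too narrow, most of all for Trp63. The tenth of barcodes with the most Trp63 held 69.9% and 87.3% of its UMIs, so the sums rest on a minority of nuclei in both libraries. Such a share can be high for a gene of few UMIs: it was 55.3% and 86.4% for Eda2r and 59.1% and 61.0% for Trp53. It was 42.0% and 62.2% for Cdkn1a, 44.2% and 48.9% for Mdm2 and 61.7% and 66.8% for Gadd45a. In the AHRfl/fl library Trp63 had the highest share although its mean count, 2.26 UMIs per Myh3-low barcode, was also the highest. The means of the other genes there ran from 0.260 to 0.720. In the AHRmKO library the mean of Trp63 was 0.465, below the 0.982 of Mdm2.

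The more fibre-like a Myh3-low barcode was by its contractile genes, the higher its Trp63 level. In the AHRfl/fl library the level was 83.6 CPM where fibre genes were 1 to under 2% of UMIs, 474 at 2 to under 5%, and 1643 (152 barcodes) at 5% or more. In the AHRmKO library the same ranges gave 2.06, 40.5 and 336 (643 barcodes). Barcodes just inside the gate, at 1 to under 1.2%, stood at 15.7 and 1.93, close to the 17.0 and 3.35 of those just outside it, at 0.8 to under 1%. The level was also lower the more Myh3 a barcode held in the AHRfl/fl library: it was 937 with no Myh3 UMI (192 barcodes), 531 above 0 to under 0.05%, 204 from 0.05 to under 0.1%, 85.9 from 0.1 to under 0.5% and 38.1 at 0.5% or more (105 barcodes). In the AHRmKO library the 5 ranges gave 140 (1180 barcodes), 81.7, 15.3, 41.6 and 31.0. The lowest value, just under the 0.1% boundary, rests on 17 UMIs. Its interval (8.92 to 24.5) overlapped that of the highest range (24.2 to 39.0). Close to that boundary, Trp63 stood at 156 and 20.3 from 0.08 to under 0.1%, and at 83.6 and 26.5 from 0.1 to under 0.12%. The AHRmKO values there rest on 9 and 14 UMIs, with overlapping intervals (9.28 to 38.5 and 14.5 to 44.5).

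**Figure D2:**
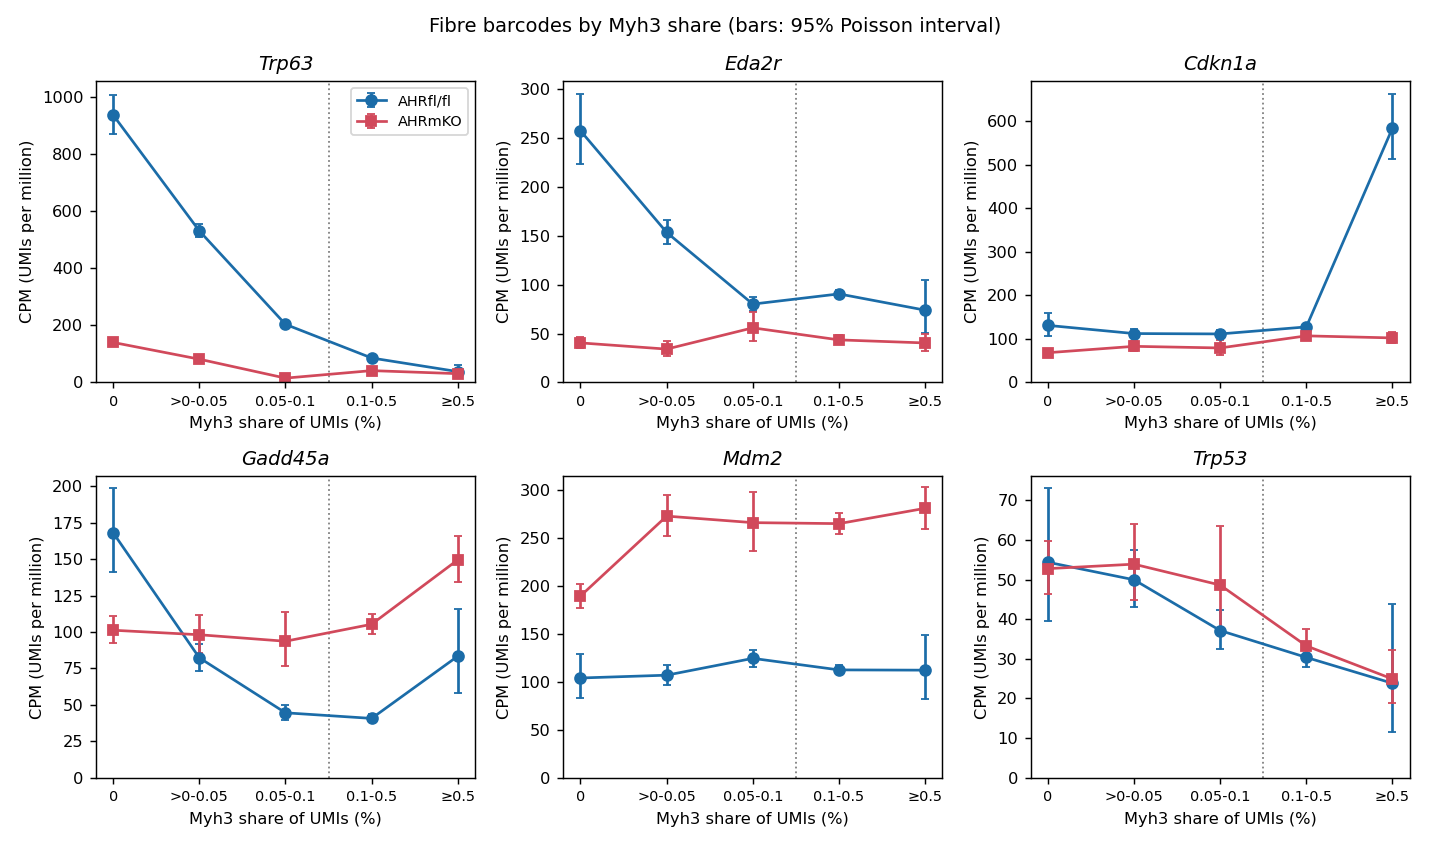
Level of each gene in CPM (linear axis from 0) over 5 ranges of the share of Myh3 in fibre nuclei, for both libraries, with exact Poisson 95% intervals as bars. In the AHRfl/fl library, Trp63 runs from 937 to 38.1 and Eda2r from 257 to 73.9 from no Myh3 to the highest range, and Cdkn1a is highest, at 584, in the highest range.

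The adult myosin genes divided the Myh3-low nuclei further. Barcodes with more Myh4, the fast glycolytic IIb isoform, than Myh1 and Myh2 together had Trp63 at 598 CPM (669 barcodes) in the AHRfl/fl library and at 260 (563 barcodes) in the AHRmKO library. Barcodes with more Myh1 and Myh2, the IIx and IIa isoforms, stood at 183 (630 barcodes) and 101 (452 barcodes). Barcodes with neither or with equal counts stood at 321 (491 barcodes) and 5.54 (835 barcodes). The last group is where the libraries differed most, and in the AHRmKO library it held the most barcodes. With the barcodes that met the satellite marker rule left out, an alternative chosen after seeing the data, the log2 ratio of Trp63 was -1.44. With only Myh3-low nuclei that also had at least 0.1% adult myosin, an alternative chosen after seeing the data, it was -0.81, and the 2-fold mark was no longer passed. With fibre genes of at least 5% of UMIs, also chosen after seeing the data, it was -2.29.

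Trp53 (ENSMUSG00000059552, chromosome 11, 69580359 to 69591873, plus strand) was spread over all cell classes. It shared with Trp63 the order of the fibre classes, but not the order over the fibre gene share. It was detected in every class of at least 29 barcodes, at 42.9 (interval 39.1 to 47.0) and 52.6 (47.7 to 57.8) CPM in Myh3-low nuclei and at 30.2 (27.9 to 32.8) and 31.4 (28.1 to 35.0) in Myh3-high nuclei of the AHRfl/fl and AHRmKO libraries. Satellite-like nuclei had 61.6 and 69.2, macrophage-like nuclei 50.5 and 46.1, and fibroadipogenic-like nuclei, of the connective tissue progenitors, 47.8 and 36.4. Over the 5 ranges of Myh3 it was lower at each step in the AHRfl/fl library, from 54.4 with no Myh3 to 23.8 (10 UMIs) at 0.5% or more, and in the AHRmKO library it was 52.8, 53.9, 48.6, 33.3 and 24.9. In Myh3-low nuclei with fibre genes at 1 to under 2%, 2 to under 5% and 5% or more, it did not rise as Trp63 did. It was 45.5, 41.0 and 38.7 in the AHRfl/fl library, with overlapping intervals, and 61.9, 55.8 and 34.8 in the AHRmKO library. Fibre nuclei held 25.2% and 37.1% of Trp53 UMIs, near or below their share of barcodes. Its log2 library ratio was 0.29 (0.10 to 0.48) in Myh3-low nuclei and 0.06 (-0.14 to 0.25) in Myh3-high nuclei, where the interval spanned 0. With a floor of 5% fibre genes the Myh3-low ratio was -0.15, on 29 and 78 UMIs. The levels there were 38.7 (25.9 to 55.5) and 34.8 (27.5 to 43.4), with overlapping intervals, so no change of direction is read from it.

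Mdm2 (ENSMUSG00000020184, chromosome 10, 117688875 to 117710758, minus strand) was higher in the AHRmKO library in both fibre classes and in most, but not all, of the others. In Myh3-low fibre nuclei it stood at 117 (interval 110 to 123) and 224 (214 to 235) CPM, and in Myh3-high nuclei at 112 (108 to 117) and 268 (258 to 278). The log2 ratios were 0.94 (0.84 to 1.05) and 1.25 (1.18 to 1.34). Outside fibres the ratio was 1.29 in satellite-like nuclei and 0.94 in macrophage-like nuclei. Fibroadipogenic-like nuclei gave 0.99, endothelial-like nuclei 1.04 and the few adipocyte-like nuclei 1.76. In myocyte-like nuclei the levels were 125 (117 to 134) and 141 (89.1 to 211; 29 barcodes), with overlapping intervals. Erythroid-like barcodes, 53 and 25 in number, had the opposite order, at 152 (105 to 213) and 35.3 (7.28 to 103; 3 UMIs), with intervals apart. Erythroid markers made up 29810 and 629062 CPM of those sums, and their part in the order was not tested. T or NK-like barcodes, 14 and 10 in number, stood at 154 and 125 with overlapping intervals. In free RNA, taken from barcodes of 200 to under 500 UMIs, which are mostly droplets without a nucleus, it was 0.69. The ratio in macrophage-like nuclei was as large as that in Myh3-low fibres. The mitochondrial share of UMIs, 0.970% and 2.66%, moved with the library as well, and its part in the ratio was not tested.

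Cdkn1a (ENSMUSG00000023067, chromosome 17, 29090976 to 29100727, plus strand) is the classical target of p53, and its RefSeq promoter window (GRCm38.p6, 250 bases before to 50 after a start) was the one among those of these genes in which a full p53 response element was found. The element was searched on both strands as 2 copies of the 10-base p53 consensus separated by at most 13 bases, and it occurred in 24 of 32851 promoter windows (0.0731%). The stretch that holds it, chr17:29090846-29090967 on the plus strand, is shown with the element in capitals because no other window of these genes held a full element.
Cdkn1a: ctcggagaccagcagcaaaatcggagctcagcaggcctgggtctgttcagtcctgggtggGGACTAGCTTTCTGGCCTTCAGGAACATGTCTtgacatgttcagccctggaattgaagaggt
Single copies of the consensus occurred in 8.36% of windows and were found once each in the windows of Trp53, Mdm2 and Gadd45a. A match is a run of letters, not a measured binding site. Sites with a mismatch to the consensus, and sites outside the windows, were not searched for and may exist in any of these genes.

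The counts of Cdkn1a were ordered otherwise than those of Trp63. Its level was 113 (interval 107 to 120) and 74.1 (68.3 to 80.3) CPM in Myh3-low nuclei and 137 (132 to 142) and 106 (99.9 to 112) in Myh3-high nuclei, so in each library the Myh3-high sum was the higher. The log2 library ratio was -0.61 (-0.75 to -0.47) in Myh3-low and -0.37 (-0.47 to -0.27) in Myh3-high nuclei. Free RNA differed far more between the libraries, at 407 and 53.5, and by this profile free RNA was estimated at 15.0% of UMIs in nuclei of both libraries, which would bring 61.1 and 8.01 CPM of Cdkn1a into any class. By the profile of at most 100 UMIs the estimated share was 26.0% in the AHRfl/fl library and 10.4% in the AHRmKO library, and the Cdkn1a it would bring was 59.5 and 12.7. Macrophage-like nuclei stood at 76.5 and 27.7, fibroadipogenic-like nuclei at 59.1 and 19.5 and endothelial-like nuclei at 75.9 and 20.6, so in the AHRfl/fl library these classes lay near the level that free RNA alone would give. With the estimate from the first profile subtracted, the log2 library ratio was 0.34 in Myh3-low and 0.36 in Myh3-high nuclei, in the opposite direction. With the profile of at most 100 UMIs, it was -0.08 in Myh3-low and -0.01 in Myh3-high nuclei. No direction is therefore given for Cdkn1a in fibres. Its highest level, 584 (513 to 662), was in the 105 barcodes of the AHRfl/fl library with Myh3 at 0.5% or more, against 102 in 519 such barcodes of the other library. Myh3 was itself 0.291% of free RNA in the AHRfl/fl library and 0.0427% in the other.

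Gadd45a (ENSMUSG00000036390, chromosome 6, 67035096 to 67037457, minus strand) overlaps E230016M11Rik, a transcript on the opposite strand, over 36.4% of its length. The sources used here do not say whether counting used the strand, so its values are uncertain. E230016M11Rik was counted at 36.5 and 35.0 CPM in Myh3-low nuclei. It runs from 67036599 to 67080654 and shares only 859 bases with Gadd45a. Its count therefore cannot show how UMIs from the shared bases were assigned, and their part in the Gadd45a values was not tested. Gadd45a stood at 67.1 (interval 62.3 to 72.1) and 99.3 (92.6 to 106) in Myh3-low nuclei and at 41.6 (38.8 to 44.5) and 115 (109 to 122) in Myh3-high nuclei. Fibre nuclei held 55.7% and 72.4% of its UMIs, and macrophage-like nuclei had 15.7 and 20.4, beside free RNA estimates of 9.30 and 4.63 (18.6 and 6.58 by the profile of at most 100 UMIs). The log2 library ratio was 0.56 (0.42 to 0.71) in Myh3-low and 1.46 (1.34 to 1.60) in Myh3-high nuclei. Setting the fibre floor at 5% turned the Myh3-low ratio to -0.60. Within the AHRfl/fl library it was 168 CPM with no Myh3 and 40.7 at 0.1 to under 0.5%. In the AHRmKO library it was 101 and 105 in the same ranges, and 150 at 0.5% or more.

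Eda2r (ENSMUSG00000034457, chromosome X, 97333840 to 97377216, minus strand) was the other gene of the 6 that was lower by at least 2-fold in both fibre classes of the AHRmKO library. Its window held no copy of the p53 consensus but held TGTTTAC, the core letters bound by forkhead factors such as FOXO, which occurred on either strand in 3.65% of windows. The stretch around it, chrX:97377298-97377394, is printed on the gene's own minus strand with those letters in capitals. This match too is only a run of letters, and control of Eda2r by a forkhead factor was not tested.
Eda2r: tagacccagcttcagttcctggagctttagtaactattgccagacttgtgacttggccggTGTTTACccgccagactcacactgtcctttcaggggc
The same letters occurred once in the Mdm2 window. GCGTG, the core bound by AHR, was searched on both strands as well and occurred in 32.4% of windows, with 2 matches in the Mdm2 window and 1 in a second Cdkn1a window.

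The level of Eda2r was 119 (interval 113 to 126) and 40.7 (36.4 to 45.3) CPM in Myh3-low nuclei and 90.2 (86.0 to 94.4) and 42.8 (39.0 to 47.0) in Myh3-high nuclei. The log2 library ratios were -1.54 (-1.73 to -1.37) and -1.06 (-1.23 to -0.92). Unlike Trp63, Eda2r was also plainly present in satellite-like nuclei, at 82.6 and 47.2, and it was lower in that library in macrophage-like nuclei too, at 19.1 and 5.90, where the free RNA estimate was 6.98 and 4.50 (11.4 and 3.34 by the profile of at most 100 UMIs). In endothelial-like nuclei the order was the reverse, at 19.5 and 39.1 on 19 and 38 UMIs. Within the AHRfl/fl library the level was higher at each step of the fibre gene share, at 66.1, 134 and 373, while in the AHRmKO library it was 34.8, 46.5 and 43.3. With fibre genes of at least 5%, the log2 library ratio in Myh3-low nuclei was -3.10. In Myh3-high nuclei the ratio lay close to the 2-fold mark, which it passed under 13 of 16 alternatives, with -0.98 as the smallest difference.

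**Figure D3:**
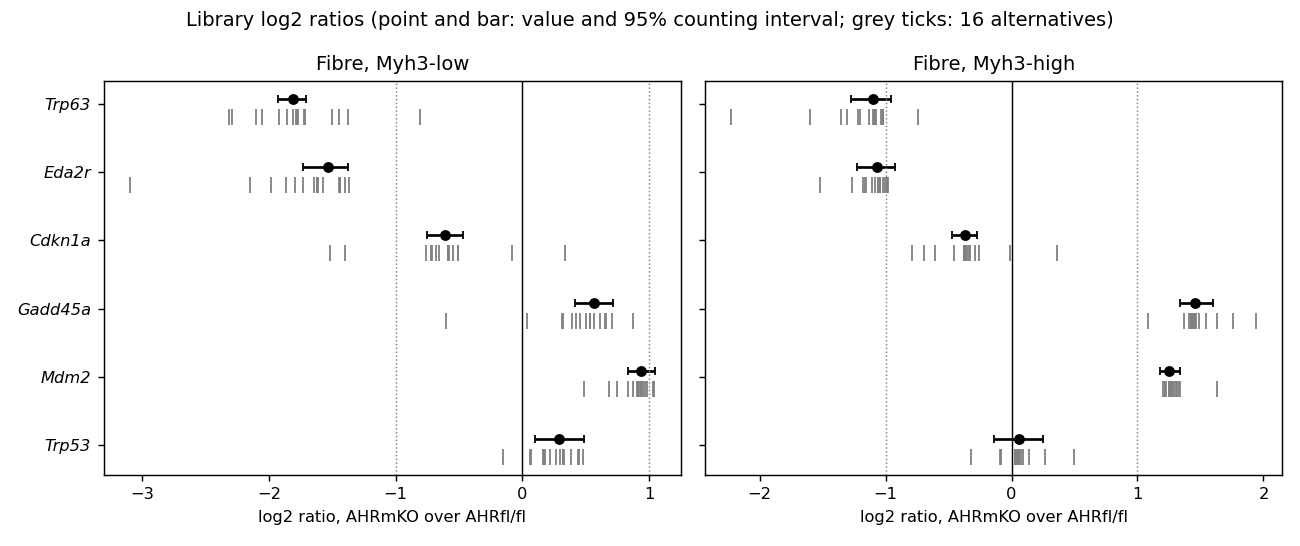
Log2 ratio of the AHRmKO library over the AHRfl/fl library for each gene in Myh3-low and Myh3-high fibre nuclei, with exact binomial 95% intervals for counting error as bars and the values under 16 other processing choices as grey ticks. Trp63 and Eda2r lie at -1.10 and -1.06 or below in both classes, Mdm2 at 0.94 and 1.25, and Trp53 within 0.29 of 0.

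Between the fibre classes of a single library, Trp63 differed most among the 6 genes. The log2 ratio of Myh3-low over Myh3-high was 2.13 (2.06 to 2.22) in the AHRfl/fl library and 1.42 (1.26 to 1.61) in the AHRmKO library. In the first library, 3.27% of 18442 genes were at least 2-fold higher in Myh3-low nuclei and 0.992% at least 2-fold lower, and in the second library the shares were 13.4% and 7.08% of 15982 genes. Trp63 was the 1 gene of the 6 that passed 2-fold under the main settings, in both libraries. For Eda2r the ratios were 0.40 and -0.07, for Trp53 0.50 and 0.73, for Cdkn1a -0.28 and -0.51, for Mdm2 0.05 and -0.26 and for Gadd45a 0.68 and -0.21. Normalising by median ratios instead of totals lowered every ratio by 0.15 in the first library and by 0.31 in the second, a shift larger than several of these ratios. The medians were taken over 12234 and 10249 better-counted genes.

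Because Trp63 was concentrated in a minority of nuclei, Myh3-low barcodes with and without a Trp63 UMI were set side by side within each library. These barcodes share a library and are not replicates, and those with a UMI had a higher median fibre gene share, 3.51% against 1.70% in the AHRfl/fl library and 8.83% against 2.27% in the AHRmKO library. Median depth was 5295 against 4823 and 3399.5 against 3451.5 UMIs. Among 8832 genes ranked in the AHRfl/fl library, the 5 with the highest ratio were Hs3st5, Npr3, Fbxo32, Dupd1 and Klhl38. Fbxo32, the muscle ubiquitin ligase atrogin-1, stood at 1457 CPM with Trp63 and at 78.1 without. In the AHRmKO library the 5 were Tshr, Igfn1, Ctnna3, Myf6 and Npr3 among 4443 genes, and Fbxo32 stood at 1223 and 244. Npr3, the clearance receptor for natriuretic peptides, was in both lists, at 71.9 against 2.93 and 61.9 against 7.83. Trim63, the ubiquitin ligase MuRF1 and a partner of Fbxo32 in muscle wasting, was added after its values were seen: it stood at 1872 against 137 and at 2002 against 297.

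Among the 6 genes, Eda2r and Gadd45a were higher in the barcodes with Trp63. Eda2r stood at 203 against 69.6 CPM in the AHRfl/fl library, a log2 ratio of 1.54 (1.38 to 1.71), and at 57.4 against 37.4, a ratio of 0.61 (0.23 to 0.99), in the AHRmKO library. Gadd45a stood at 114 against 39.3 and at 133 against 92.7, ratios of 1.53 and 0.52. The macrophage marker Mrc1 was also higher with Trp63 in the AHRfl/fl library, at 178 against 123, a log2 ratio of 0.53 (0.38 to 0.68), but not in the AHRmKO library, at 84.2 against 110, and its part in the differences was not tested. Cdkn1a was lower in the barcodes with Trp63, at 91.1 against 126 and 43.2 against 80.3. Mdm2 was level in the first library, at 120 against 115, and lower in the second, at 124 against 244, where the barcodes without Trp63 also had more Pax7, at 397 against 79.0. Trp53 was 47.2 against 40.5 and 41.8 against 54.7, with both intervals of the ratio spanning 0. In these sums over all fibre gene shares, Cdkn1a and Mdm2 thus did not stand higher where Trp63 was detected, whereas Eda2r and Gadd45a did. The adult myosin gene Myh4 was also higher with Trp63, at 1060 against 371 and 2882 against 666, log2 ratios of 1.52 and 2.11. Differences of this size were thus not particular to Eda2r and Gadd45a.

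Barcodes were also grouped by their number of Trp63 UMIs in the AHRfl/fl library. With 0, 1, 2 to 4 and 5 or more Trp63 UMIs, Eda2r stood at 69.6, 80.0, 157 and 318 CPM. Gadd45a stood at 39.3, 35.3, 85.7 and 187 over the same steps, and Fbxo32 at 78.1, 309, 970 and 2566. Fbxo32 was higher at each step, and Eda2r and Gadd45a from 2 Trp63 UMIs on. For Eda2r the intervals at 0 (63.5 to 76.2) and at 1 Trp63 UMI (64.0 to 98.7) overlapped. Eda2r in the AHRmKO library was 37.4, 32.1, 38.2 and 155, with the last step, of 46 barcodes, apart from the others. Gadd45a was 92.7 (85.6 to 100), 65.9, 120 (91.9 to 155) and 314 (248 to 391). Fbxo32 was higher at every step there too, at 244, 793, 1279 and 2126.

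**Figure D4:**
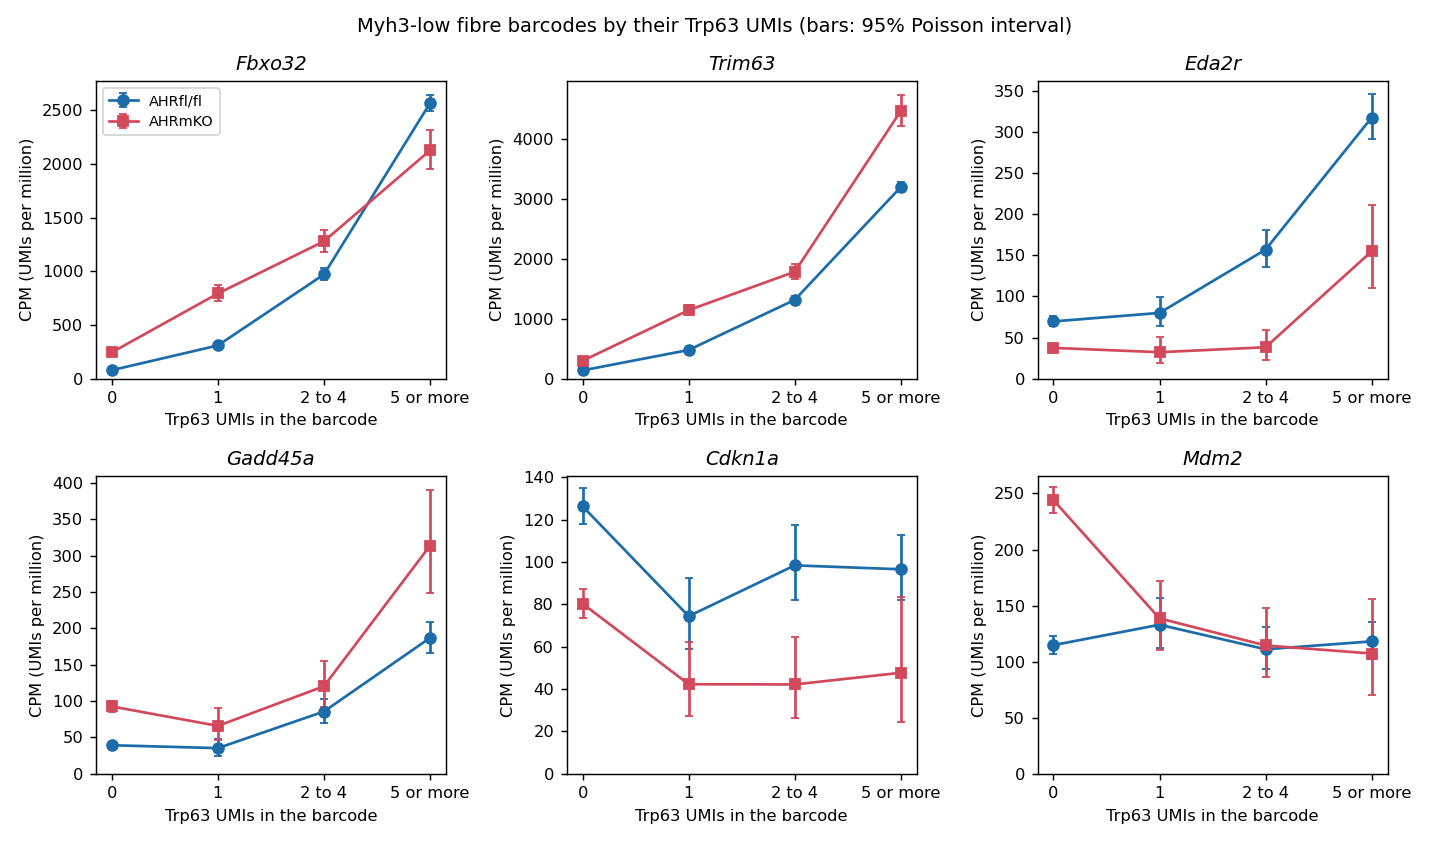
Level of Fbxo32, Trim63, Eda2r, Gadd45a, Cdkn1a and Mdm2 in CPM (linear axis from 0) in Myh3-low fibre nuclei grouped by their number of Trp63 UMIs, for both libraries, with exact Poisson 95% intervals. Eda2r runs from 69.6 to 318 and Fbxo32 from 78.1 to 2566 in the AHRfl/fl library, while Cdkn1a runs from 126 to 96.5.

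Since fibre content moved with Trp63, the same comparison was made within ranges of the fibre gene share. Depth was not matched in them. At 1 to under 2% the median was 7514 UMIs with Trp63 and 4810 without in the AHRfl/fl library. In the AHRmKO library it was 9845 (7 barcodes) and 3770.5, and the part of depth in the differences was not tested. In the AHRfl/fl library, Eda2r with and without Trp63 was 80.2 (62.0 to 102) and 63.4 (56.0 to 71.5) CPM at 1 to under 2%, so the intervals overlapped there. At 2 to under 5% it was 191 (174 to 209) and 74.1 (63.7 to 85.7), and at 5% or more 427 (376 to 483) and 167 (109 to 245). In the AHRmKO library it was 20.5 (7 barcodes, 2 UMIs) and 35.2 at 1 to under 2%, the opposite order on few counts. It was 47.1 and 46.5 at 2 to under 5% and 64.4 (49.3 to 82.8) and 27.8 (19.5 to 38.5) at 5% or more. The intervals for Eda2r were thus apart in both higher ranges of the AHRfl/fl library, and in the AHRmKO library only at 5% or more. Gadd45a with and without Trp63 was 69.3 and 38.2, 118 and 42.4, and 160 and 19.3 (3 UMIs) over the 3 ranges of the AHRfl/fl library, with intervals apart in each. Gadd45a in the AHRmKO library was 20.5 (2.48 to 74.1; 2 UMIs) and 87.4 (77.6 to 98.1), apart in the opposite order, then 165 (122 to 218) and 126 (111 to 141), which overlapped, and 134 (112 to 160) and 50.9 (39.4 to 64.8) at 5% or more. Cdkn1a was lower with Trp63 at 1 to under 2% in the AHRfl/fl library, at 71.7 (54.6 to 92.5) against 134 (123 to 145), and at 2 to under 5% in the AHRmKO library, at 50.5 (28.2 to 83.2) against 109 (96.0 to 124). Its intervals overlapped in the other 4 comparisons, and at 5% or more it was 94.2 against 64.3 (10 UMIs) and 37.0 against 30.1, so its lower level with Trp63 was not seen there. Mdm2 intervals overlapped in every range of the AHRfl/fl library. With Trp63 in the AHRmKO library Mdm2 was 133 against 264, 202 against 255 and 98.3 against 174, with overlap in the middle range alone. Fbxo32 stood at 1341 against 81.9 (AHRfl/fl) and 592 against 95.2 (AHRmKO) at 2 to under 5%, and at 2774 against 309 and 1536 against 982 at 5% or more. Mrc1 stood at 377 against 126 at 1 to under 2% and 141 against 125 at 2 to under 5% in the AHRfl/fl library, and at 58.9 against 25.7 (4 UMIs) at 5% or more, with overlapping intervals in the last 2 ranges. Mrc1 in the AHRmKO library stood at 318 (7 barcodes) against 134 and at 151 against 75.0 in the lower ranges, but at 5% or more it was lower with Trp63, at 39.1 (27.5 to 53.9) against 107 (90.2 to 127).

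After thinning to 2000 UMIs, an Eda2r UMI was seen in 170 of 437 Myh3-low barcodes with Trp63 (38.9%, 34.3 to 43.6%) and in 167 of 1353 without (12.3%, 10.6 to 14.2%) in the AHRfl/fl library. The shares in the AHRmKO library were 20 of 211 (9.48%, 5.89 to 14.3%) and 100 of 1639 (6.10%, 4.99 to 7.37%), with overlapping intervals. Gadd45a was seen in 26.3% (22.2 to 30.7%) and 8.65% (7.20 to 10.3%) in the AHRfl/fl library, and in 17.1% (12.2 to 22.8%) and 15.0% (13.3 to 16.8%) in the AHRmKO library, where the intervals again overlapped. Cdkn1a was seen equally often in both sets of the first library, at 22.0% and 21.9%. In the second it was seen in 8.53% (5.13 to 13.1%) with Trp63 and 12.8% (11.2 to 14.5%) without, with overlapping intervals. Mdm2 was seen in 19.5% and 19.4% in the first library. In the second it was seen less often with Trp63, in 17.5% (12.7 to 23.4%) against 32.1% (29.8 to 34.4%). As a background, 2 genes of 1 nucleus share its depth and its free RNA, and the thinned shares hold depth at a fixed number.

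Over 23 sums of a class in a library with at least 50000 UMIs, the genes whose log2 level was most like that of Trp63 were 1110020A21Rik, Gm15179, Asb16, Tmod4 and Ucp3, each with a Pearson r of 0.83 among 16809 genes. Those most like Eda2r were Emp2 (r = 0.93), Cdk2ap1, Tmem246, Dusp27 and Atp1b1 (each 0.91). The sums share libraries and fibre content, so these are descriptions. They span all classes, so a high r need not mean the same order among the fibre sums. Asb16 was lower in Myh3-low than in Myh3-high nuclei, at 5.45 against 6.24 CPM (AHRfl/fl) and 6.54 against 10.4 (AHRmKO). Gm15179, Tmod4 and Ucp3 were higher in Myh3-low nuclei of both libraries, as Trp63 was. Between the libraries, Myh3-low nuclei had Tmod4 at 16.3 and 27.8, the opposite order to Trp63, and Emp2 at 35.2 and 32.9. Between Trp63 and the other 5 genes r ran from -0.07 (Trp53) to 0.39 (Eda2r), and between Eda2r and Cdkn1a it was 0.74.

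Among 28 further p53 targets, 27 were measured in Myh3-low nuclei, and 9 were at least 2-fold higher and 1 at least 2-fold lower in the AHRmKO library, beside 10.7% higher and 19.2% lower of all genes. Their median log2 ratio was 0.43, beside -0.07 over all genes. The 4 with the most UMIs over all fibre barcodes of both libraries were Sesn1, a stress-induced regulator of nutrient signalling, at 169 and 146 CPM, Ccng1, cyclin G1, at 41.3 and 23.6 in Myh3-low nuclei, Ei24 at 38.7 and 38.4, and the repair nuclease Ercc5 at 30.8 and 76.4. In Myh3-high nuclei 3 were higher and 1 lower (5.74% and 17.6% of all genes), with a median of 0.07 beside -0.16. Within libraries, 5 of 27 were higher in Myh3-low than in Myh3-high nuclei and none lower in the AHRfl/fl library (3.27% and 0.992% of all genes). In the AHRmKO library 10 of 27 were higher and none lower (13.4% and 7.08%).

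Of 19 measured regulators and partners of p53, 4 were at least 2-fold higher in Myh3-low nuclei of the AHRmKO library and none lower (10.7% and 19.2% of all genes). In Myh3-high nuclei 2 were higher and 1, Cdkn2a, was lower (5.74% and 17.6%). Mdm4, the relative of Mdm2 that also restrains p53, stood at 203 and 350 CPM, and the acetyltransferase Crebbp at 375 and 556. Of 13 measured genes of EDA2R signalling, 1 (Traf2) was higher and none lower in Myh3-low nuclei, and the same counts were found in Myh3-high nuclei. Eda stood at 146 and 140 and Traf3 at 240 and 214. Ectodysplasin A2 is 1 splice form of Eda, and counts per gene do not tell it from the form that binds another receptor. Map3k14, the kinase NIK of the non-canonical NF-kappaB pathway, stood at 133 and 167.

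Of 14 measured genes of the denervation response, 7 were at least 2-fold lower and 1 higher in Myh3-low nuclei of the AHRmKO library, beside 19.2% lower and 10.7% higher of all genes, with a median log2 ratio of -0.88 beside -0.07. Myog, 1 of the 7, is also a myocyte marker. The myocyte rule was met by 982 of 1790 and 144 of 1850 of these barcodes, and its part in these ratios was not tested. In Myh3-high nuclei 2 were lower and none higher, beside 17.6% and 5.74% of all genes, and the median was -0.01 beside -0.16. Ncam1 stood at 3473 and 1388 CPM and Myh8, perinatal myosin, at 358 and 35.4, while Runx1 was 3545 and 4338 and Chrng, the fetal subunit of the acetylcholine receptor, 209 and 179. Chrng was lower in Myh3-low barcodes with Trp63 than in those without in both libraries, at 126 against 257 and 64.9 against 202, and Chrna1, the alpha subunit of that receptor, stood at 212 against 319 and 45.5 against 110. Both were named after their values were seen, and the other list genes were not split by Trp63. The fibre gene share also differed between these barcodes. Within its 3 ranges in the AHRfl/fl library, Chrna1 was 209 against 309, 223 against 344 and 165 (134 to 201) against 187 (125 to 268). The intervals thus overlapped at 5% or more, and the part of fibre content in these differences was not tested. Of the 9 relatives of Gadd45a and Cdkn1a, none was 2-fold higher and 1, Cdkn2b, was lower in Myh3-low nuclei, while in Myh3-high nuclei Cdkn2b and Cdkn2a were lower. The largest of them was Cdkn1c, the inhibitor p57, at 192 and 258.

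Of 10 genes that p63 is known to serve in epithelia, 3 reached 10 UMIs in the Myh3-low sums: Itgb4 at 8.59 and 15.7 CPM, Col17a1 at 2.03 and 2.96 and Sfn at 0.55 and 3.08. Krt5, Krt14, Krt15 and Dsc3, 4 of the 7 keratinocyte markers, were at 0 in all 4 fibre sums. The 7 markers summed to between 4.81 and 6.74 CPM in those sums, and no barcode met the keratinocyte rule in either library.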

How the data were processed

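Single-nucleus RNA was measured in 2 libraries of the tibialis anterior (10x Genomics Chromium 3' HT chemistry), 1 for each genotype label. The values the authors deposited are raw UMI counts for every gene in all barcodes, without normalisation. Cell Ranger 7.0.1 and the build mm10 are named in the submitters' processing notes; whether intronic reads were counted and whether counting used strand are not given in the sources used here. The 6 genes, the 6 gene lists and the markers were chosen with earlier results of these data known.

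Barcodes of at least 2000 UMIs were classed by markers: fibre first, then 14 other classes, each needing at least 3 detected markers. Classes were rebuilt from markers in this work. Counts were summed per class and library, given per 1000000 UMIs, and compared as log2 ratios with 0.5 CPM added, which understates changes of low genes. With 1 library per group no test was made, and a gene was counted as called at 2-fold, among genes with at least 10 UMIs over both sums. Named genes were the 6 genes, the 5 genes most like Trp63 and Eda2r, the 5 with the highest ratio by Trp63 detection among genes with at least 50 UMIs, and the 4 of each list with the most UMIs in fibre barcodes. For some lists only part of those 4 is printed. Trim63, Pax7, Myog, Mrc1, Traf2, Cdkn2a, Cdkn2b, and Myh4, Chrng and Chrna1 in nuclei with Trp63, are named for their values or as markers. Free RNA was profiled in barcodes of 200 to under 500 UMIs and its share estimated from 15 fibre genes in macrophage-like barcodes. Doublets were kept, and leaving out the top scores (1453 and 325 barcodes) was an alternative. The fold and interval code was tested on simulated data drawn as independent counts, which cannot show an uneven spread over nuclei. Python 3.11.15, numpy 2.4.6, scipy 1.17.1, pandas 2.3.3, scanpy 1.11.5 and matplotlib 3.10.9 were used. Gene positions are from GENCODE M21 (GRCm38) and promoter windows from RefSeq, in which 5 of the 6 genes matched, with 6 windows.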

Additional observations from a re-analysis of the deposited data

Results flagged for a closer look

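Gadd45a took opposite directions between the fibre classes of the 2 libraries: its log2 ratio of Myh3-low over Myh3-high was 0.68 in the AHRfl/fl library and -0.21 in the AHRmKO library. With 1 library each, this difference was not tested.

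Free RNA, measured in barcodes of 200 to under 500 UMIs outside the nuclei compared, held Trp63 at 24.7 CPM in the AHRmKO library and at 18.3 in the AHRfl/fl library, the opposite order to fibre nuclei. In barcodes of at most 100 UMIs the levels were 29.6 (22.9 to 37.6) and 31.4 (24.4 to 39.7), with overlapping intervals, so that order was not seen there. In barcodes of 200 to under 500 UMIs, free RNA also held Mdm2 at 140 CPM in the AHRmKO library and at 86.7 in the AHRfl/fl library, the same order as in nuclei.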

How the results depend on the processing

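Each library ratio and each ratio between fibre classes was recomputed under 16 alternatives. Of 384 values, 269 stayed within the counting interval of the reported value, 111 moved outside it, and 4 changed sign where that interval did not span 0. For Myh3-low library ratios the counts were 64, 29 and 3 of 96.

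The reversed values were Cdkn1a at 0.34 (Myh3-low) and 0.36 (Myh3-high) with free RNA subtracted by the profile of 200 to under 500 UMIs, and Gadd45a at -0.60 and Trp53 at -0.15 (Myh3-low) with fibre genes of at least 5%. The Trp53 value rests on 29 and 78 UMIs, with overlapping intervals of the levels. In the alternatives that follow, all values are Myh3-low library ratios on the log2 scale. Splitting Myh3 at 0.05% gave Trp63 -2.32, Eda2r -2.15, Gadd45a 0.041 and Trp53 0.066, and splitting at 0.2% gave Trp63 -1.37, Eda2r -1.37 and Gadd45a 0.87. Adult myosins of at least 0.1% gave Trp63 -0.81, Eda2r -1.99, Cdkn1a -1.51, Gadd45a 0.39, Mdm2 0.49 and Trp53 0.058. Fibre genes of at least 2% gave Eda2r -1.86, Gadd45a 0.32 and Mdm2 0.75, and of at least 5% Trp63 -2.29, Eda2r -3.10, Cdkn1a -1.40 and Mdm2 0.69, on 152 barcodes of the AHRfl/fl library. Free RNA subtracted by the profile of at most 100 UMIs gave Trp63 -2.10, Eda2r -1.79 and Cdkn1a -0.082. Leaving out the top doublet scores gave Trp63 -2.05, Cdkn1a -0.76 and Gadd45a 0.32. Leaving out barcodes with markers of another class gave Trp63 -1.51, and of satellite cells -1.44. Scaling by the median ratio, taken over 10527 better-counted genes, lowered every ratio by 0.11 and gave Mdm2 0.83. The alternatives on adult myosins, fibre genes of at least 5%, satellite markers and the profile of at most 100 UMIs were chosen after seeing the data. The cause of these moves was not tested.

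Trp63 ran from -2.32 to -0.81 and Eda2r from -3.10 to -1.37, Eda2r passing 2-fold under all 16 alternatives and Trp63 under 15. Mdm2 ran from 0.49 to 1.04, and passed 2-fold under 2. In Myh3-high nuclei Eda2r ran from -1.52 to -0.98 and passed 2-fold under 13, and Trp63 ran from -2.22 to -0.74, with Myh3 split at 0.2%, and passed under 15. For Myh3-low over Myh3-high, Trp63 ran from 1.76 to 2.90 in the AHRfl/fl library and from 1.11 to 2.83 in the AHRmKO library, past 2-fold under all 16. In the AHRfl/fl library Gadd45a passed under 4, up to 1.19, and Eda2r under 1, at 1.66. In the AHRmKO library Cdkn1a passed under 2, down to -1.59. No paired analysis was possible because each group has 1 library. Depth limits the rare classes: 57 and 53 adipocyte-like barcodes, and 1 Trp63 UMI among endothelial-like barcodes of the AHRmKO library.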
